A study of Mus musculus with 9 samples.

Results

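The matrix-binding integrins examined here are 10 genes, taken from the table by symbol: Itga1, Itga2, Itga3, Itga5, Itga8, Itga11 and Itgav, which encode α subunits, and Itgb1, Itgb3 and Itgb5, which encode β subunits. All 10 were found among the 18049 genes of the deposited table. No threshold on a measured value was used to choose them, but earlier results of these data were known at the time. They were measured by bulk RNA-sequencing in 9 clones of MPC, primary cells that had been cultured out of the pancreatic tumors of WTg mice, all of a single condition. WTg mice are the offspring of Mettl3 overexpressing mice, in which the ubiquitous CAG promoter drives the Mettl3 open reading frame and which were made from BL/6 eggs, and EL1-Luc/EL1-TAg mice on the FVB/N background, whose SV40 large T antigen and luciferase are under the pancreatic elastase I promoter, so that the clones are of mixed strain. Every clone therefore came from an animal with all of these transgenes, and cells without them were not analysed here. The age and sex of the tumor-bearing animals are not given in the sources used here, each library is 1 clone picked as a colony from cells that attached to plastic, and the labels give the treatment as none, although a protocol field names 80 nM NMS-P937, a PLK1 inhibitor, for 24 h. How many animals the clones came from is likewise not given. The sex-linked genes described below differ between libraries as between females and males, which points to more than a single animal. The spread between libraries may hold both clone and animal.

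Integrins are heterodimers of 1 α and 1 β subunit that span the cell membrane, bind matrix proteins outside the cell, and connect through talin and kindlin to actin inside it. The β1 subunit pairs with many α subunits: α1, α2 and α11 give collagen receptors, α3 gives a laminin receptor, and α5 and α8 give receptors for the RGD sequence of fibronectin and nephronectin. Within this set of genes, the αv subunit pairs with β1, β3 or β5, and αv integrins bind vitronectin, fibronectin and the latent form of TGF-β. In connective tissue, α11 and α8 are known from fibroblasts and myofibroblasts, whereas αv, β1 and β5 are made by many cell types, macrophages among them.

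The libraries were named after their column-name prefix: A1, B1 to B4, and C1 to C4. The meaning of the prefixes is not stated by the authors. Levels are given as normalized counts, that is, read counts multiplied by 1 factor per library, which were obtained by reversing the authors' log2 with an offset of 4. Between 12198036 and 20453901 reads per library fell on genes, and the floor of 3 reads lay between 3.79 and 6.56 normalized counts. Mettl3 was at 2184 normalized counts in A1 and at 468 to 621 in the other 8 libraries, and reads of the transgene, a mouse Mettl3 sequence, and of the endogenous gene are counted together. Prefix B also carried Xist at 29664 to 32912 normalized counts with Ddx3y listed at 0. A1 and prefix C had Ddx3y at 2376 to 2720 and Xist at no more than 8.39. The clones are therefore unlikely to come from a single animal, and prefix, clone, animal and sex chromosomes cannot be told apart. The labels call the cells fibroblasts: 13 of 14 fibroblast markers were above the floor in every library, and so were all 16 macrophage markers. The fibroblast list summed to 161098 to 524807 normalized counts and the macrophage list to 589681 to 939779, of which Lyz2 alone held 287615 to 577311, and these sums, over different genes and not corrected for length, do not compare the cell types. In bulk RNA, fewer cells of a type and less RNA per cell cannot be told apart.

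Promoter sequences are shown for the 3 α subunit genes whose levels moved together among the clones, Itga1, Itga8 and Itga11, and for Itga5 and Itgb5, whose correlations with these 3 genes were weaker, at 0.391 to 0.528 for Itga5 and -0.30 to -0.14 for Itgb5. Each is the stretch just before the annotated start, read 5′ to 3′ on the gene's own strand from the RefSeq promoter windows of build GRCm38.p6. Capitals mark the GC box, GGGCGG or its complement CCGCCC, a letter pattern that the Sp1 family of factors can bind. The bases lie at chr13:115101965-115102084 on the minus strand for Itga1, chr2:12301986-12302064 on the minus strand for Itga8, chr9:62677735-62677854 on the plus strand for Itga11, chr15:103366792-103366911 on the minus strand for Itga5 and chr16:33829545-33829664 on the plus strand for Itgb5. For Itga8, the 41 bases nearest the start lie inside the annotated gene and were left out.
Itga1: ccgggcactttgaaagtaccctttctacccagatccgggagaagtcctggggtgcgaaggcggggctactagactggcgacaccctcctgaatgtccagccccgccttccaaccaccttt
Itga8: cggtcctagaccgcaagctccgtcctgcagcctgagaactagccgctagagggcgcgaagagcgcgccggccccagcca
Itga11: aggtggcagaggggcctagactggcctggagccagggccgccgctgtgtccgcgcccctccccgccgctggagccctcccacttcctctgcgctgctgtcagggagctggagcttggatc
Itga5: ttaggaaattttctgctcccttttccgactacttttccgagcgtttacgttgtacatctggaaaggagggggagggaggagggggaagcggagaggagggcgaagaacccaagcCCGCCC
Itgb5: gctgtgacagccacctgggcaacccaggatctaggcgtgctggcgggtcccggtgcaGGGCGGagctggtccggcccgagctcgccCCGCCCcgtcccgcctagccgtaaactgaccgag

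Of the 10 genes, 9 had promoter windows, 10 windows in all because Itga3 has 2 annotated starts, and each window holds 300 bases around the start. A GC box on either strand was present in 7 of these 10 windows, against 35.7% of all 32851 windows. They belong to 6 of the 9 genes, Itga2, Itga3, Itga5, Itgav, Itgb1 and Itgb5. The 3 genes without a GC box were Itga1, Itga8 and Itga11, and Itgb3, which varied together with them, is the gene for which no window was read. Most of all windows lack a GC box, and whether its absence bears on the shared variation was not tested. The GC content of the windows of these 3 genes was 56.7%, 59.0% and 68.0%, within the range of 52.3% to 67.3% of the other integrin windows except for Itga11. Over all windows the median was 52.7%, and the share with a GC box at like GC content was not taken. The letters TATAAA were in no window of the integrin genes, against 13.6% of all windows. The motif GGAATG, bound by TEAD factors, was in the window of Itgb1, against 14.7% of all windows, and CAGACA, a motif bound by SMAD factors, was in those of Itga2, Itga3 and Itgb1, against 21.0%. The AP-1 motif TGANTCA was in 1 of the 2 Itga3 windows, against 7.81%. Motifs were sought on both strands, none of them contains another, and a match is a description of the sequence.

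Itgb1 and Itgb5 differed least among the clones of the 10 genes. Itgb1 (ENSMUSG00000025809, chromosome 8, 128685654 to 128733579), the common partner, was at 37159 ± 5448 normalized counts (SD, n = 9), with 30138 in A1 as the lowest, a median of 35255 and 45534 in C1 as the highest. Itgb5 (ENSMUSG00000022817, chromosome 16, 33829665 to 33949338), which pairs with αv, was at 18194 ± 3233 (SD, n = 9), from 13223 in C4 over a median of 18782 to 23210 in B4. The highest library exceeded the lowest by 1.51-fold for Itgb1 and by 1.76-fold for Itgb5. Itgb3 (ENSMUSG00000020689, chromosome 11, 104608000 to 104670476), another αv partner, varied more, at 750 ± 277 (SD, n = 9), from 323 in B3 over a median of 805 to 1003 in B1. Its 3 lowest libraries, B2, B3 and C1, lay at 323 to 447, while the other 6 lay at 767 or above, and both prefixes were found on both sides of this gap.

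Among the receptors for RGD-bearing proteins, Itgav and Itga5 varied less than Itga8. Itgav (ENSMUSG00000027087, chromosome 2, 83722303 to 83806917) was at 9122 ± 2028 normalized counts (SD, n = 9), from 6188 in A1 over a median of 8583 to 12087 in B4. Itga5 (ENSMUSG00000000555, chromosome 15, 103344286 to 103366791), the α subunit of the classical fibronectin receptor, was at 11748 ± 3785 (SD, n = 9), from 8186 in B1 over a median of 10839 to 19216 in C1. The 4 libraries of prefix B held the 4 lowest Itga5 values, and C1 and A1 the highest. Itga8 (ENSMUSG00000026768, chromosome 2, 12106632 to 12301985), whose product binds nephronectin, was at 737 ± 302 (SD, n = 9), from 301 in B3 over a median of 736 to 1252 in C3. Relative to Itgav within the same library, Itga5 ranged from 0.734 in B4 to 2.59 in A1, a 3.53-fold range in the balance of the normalized counts of these α subunits.

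The collagen and laminin receptor genes covered a wide range. Itga11 (ENSMUSG00000032243, chromosome 9, 62677855 to 62783979), the α subunit of a fibrillar collagen receptor, was at 3903 ± 2651 normalized counts (SD, n = 9), from 574 in B2 over a median of 2976 to 8965 in C4, a 15.6-fold span. Itga1 (ENSMUSG00000042284, chromosome 13, 114958079 to 115101964), the α subunit of a collagen IV receptor, was at 1251 ± 483 (SD, n = 9), from 394 in B3 over a median of 1278 to 1809 in C3. The ratio of Itga11 to Itga1 ran from 0.731 in B2 to 7.24 in C4, so the collagen receptor genes did not keep a fixed proportion. Itga2 (ENSMUSG00000015533, chromosome 13, 114833081 to 114932100), also the α subunit of a collagen receptor, was at 30.9 ± 22.7 (SD, n = 9), from 10.9 in A1 over a median of 23.6 to 81.2 in B2. Its value in A1 rests on 5 reads, with an exact binomial 95% interval of 3.55 to 25.5 normalized counts, and that in B2 on 57 reads, with an interval of 61.5 to 105. Itga2 lies 25978 bases from Itga1 on the same strand of chromosome 13, and over the 9 libraries the log2 values of these neighbours had r = -0.13. Itga3 (ENSMUSG00000001507, chromosome 11, 95044475 to 95076844), the laminin-binding subunit, was at 252 ± 131 (SD, n = 9), and its values fell into a higher set of 354 to 433 in B1, B3, B4 and C1 and a lower set of 109 to 178 in the other 5 libraries. The 4 mesothelial markers, Msln, Upk3b, Wt1 and Lrrn4, summed to 716 to 1200 normalized counts in the same 4 libraries and to 0 to 128 in the others, none of the 4 markers was above the floor in every library, and the part of such cells in the Itga3 values was not tested.

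**Figure D1:**
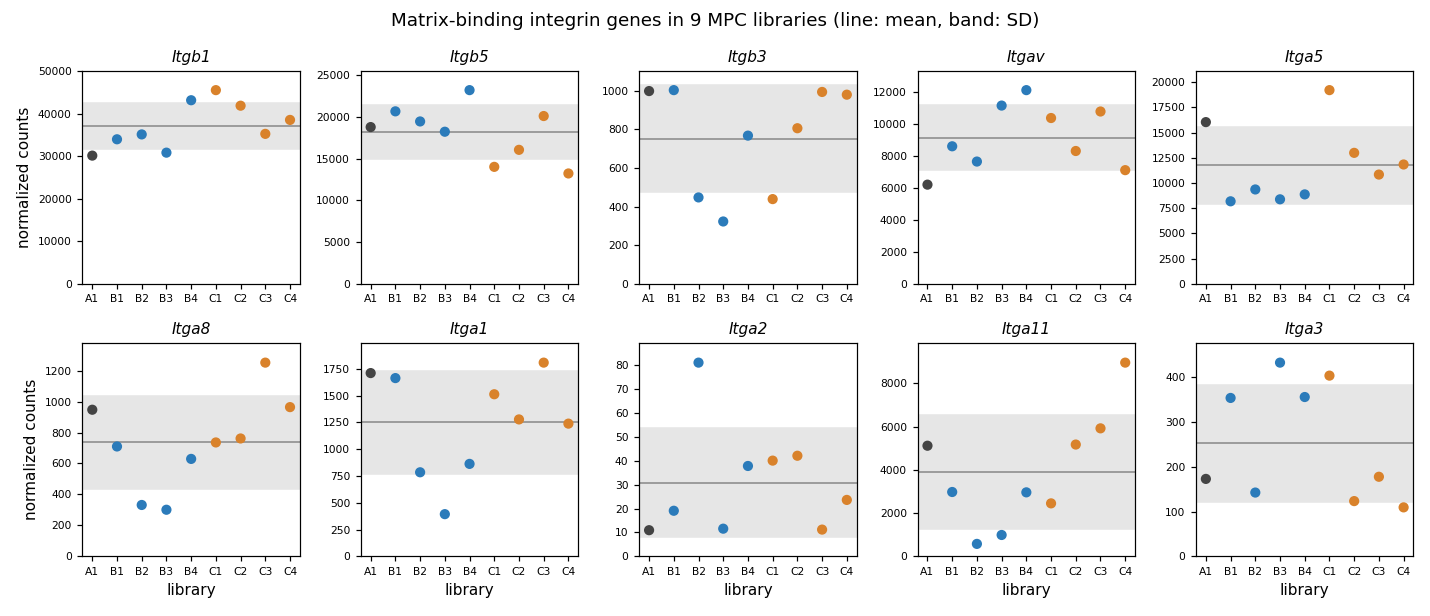
Normalized counts of each matrix-binding integrin gene (vertical axis, linear from 0, a separate scale in each panel) in the 9 libraries A1, B1 to B4 and C1 to C4 (horizontal axis; grey, blue and orange points for prefixes A, B and C), with the mean as a line and the SD as a band. Itgb1 stays between 30138 and 45534, whereas Itga11 runs from 574 to 8965, and all 4 Itga5 points of prefix B lie below those of prefix C.

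All 10 genes were above the floor in all 9 libraries. Separate clones are expected to differ by more than read counting, which is given only as the precision of a value. The coefficient of variation was 67.9% for Itga11, 38.6% for Itga1, 40.9% for Itga8 and 32.2% for Itga5, where counting reads alone gives 1.98%, 3.47%, 4.52% and 1.13%. For Itga2 the values were 73.7% and 21.5%. Among the 14705 genes whose mean reached 10 normalized counts, the median SD of log2(normalized counts + 1) over the 9 libraries was 0.25, and 9 of the 10 integrin genes lay above it, with Itgb1 at 0.21 the exception. Itga11 and Itga2 lay above the ninetieth percentile, at 1.27 and 0.98. The others ranged from 0.27 for Itgb5 to 0.79 for Itga3.

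**Figure D2:**
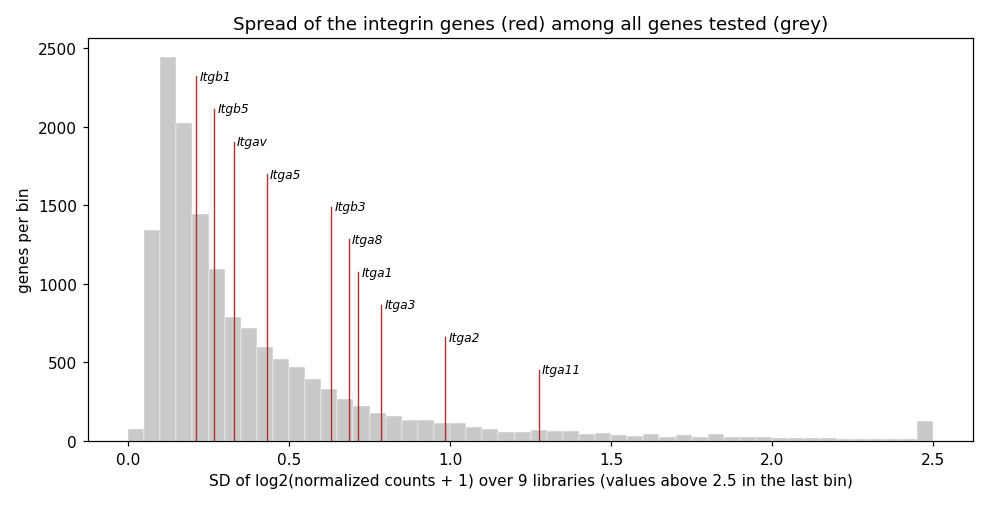
Number of genes per bin (vertical axis) by the SD of log2(normalized counts + 1) over 9 libraries (horizontal axis) for the 14705 genes tested, in grey, with a red line at the SD of each integrin gene. Itgb1 at 0.21 lies left of the median of 0.25, and Itga11 at 1.27 farthest right of the 10.

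Between the integrin genes, 4 moved together: Itga1, Itga8, Itga11 and Itgb3. Their 6 pairwise Pearson correlations over the 9 libraries ranged from 0.692 to 0.925, and from 0.670 to 0.921 without A1. These 4 were picked out after their values were seen, and 6.33% of all pairs of genes tested had an r at or above the lowest of the 6. The closest pair was Itga8 and Itga11, with r = 0.925: B2 and B3 were lowest for both genes, and C3 and C4 highest. The product of Itgb3 does not pair with α1, α8 or α11, so these 4 genes are not the subunits of a shared receptor. Itga3 and Itgav had r = 0.687. Itga5 and Itgb5 ran in opposite directions, with r = -0.63 over the 9 libraries and -0.75 without A1: C1, the library with most Itga5, had the second lowest Itgb5. All genes of a library share its scaling factor, and these correlations are descriptions.

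**Figure D3:**
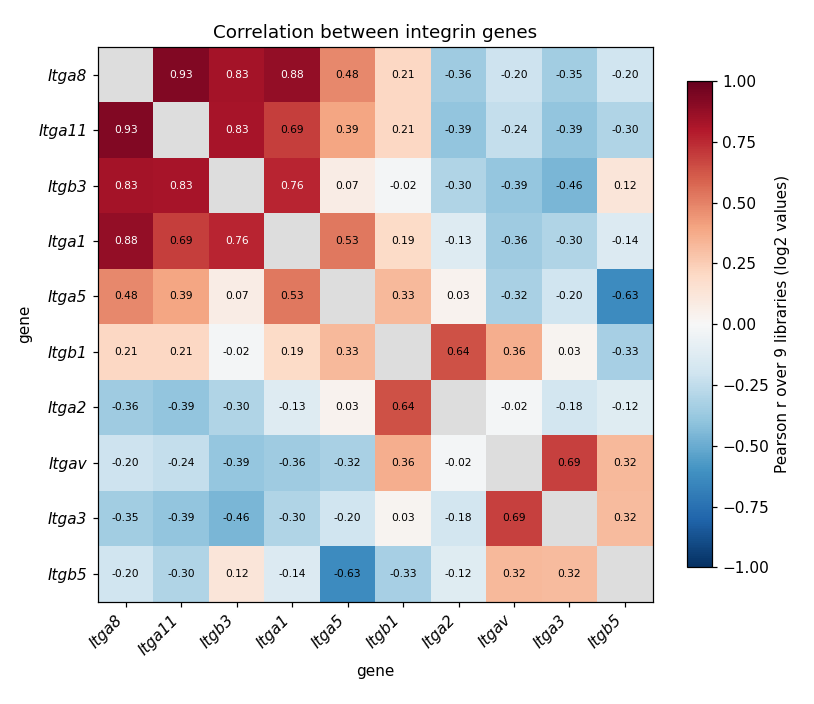
Pearson correlation of log2(normalized counts + 1) over 9 libraries between each pair of integrin genes (rows and columns are genes, and the colour runs from -1 in blue to 1 in red, with the value in each cell). Itga8, Itga11, Itgb3 and Itga1 form a red block of 0.692 to 0.925, and the Itga5 and Itgb5 cell is the darkest blue.

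Whether subunits that form a receptor rose and fell together was tested for the 9 pairs that the products can make. None of the 9 pairs passed, and the Benjamini-Hochberg adjusted p of Pearson's r in the exact two-sided permutation test over all 362880 pairings lay between 0.632 and 0.937, and no pair had an unadjusted p under 0.05. The pair with the highest r was Itga2 with Itgb1, with r = 0.636 and Spearman's rho = 0.617 (exact permutation p = 0.0702 and 0.0857, adjusted p = 0.632 and 0.694). Without the 2 libraries farthest from the median of Itga2, r was 0.913 (exact permutation p = 0.0103, adjusted p = 0.0929), and after centring within prefixes B and C it was 0.665 (exact permutation p = 0.115). Itga5 with Itgb1 had r = 0.325 and rho = 0.350 (exact permutation p = 0.388 and 0.359), and A1 decided this value: there Itga5 was second highest and Itgb1 lowest, and without A1 r was 0.718 (exact permutation p = 0.0379, adjusted p = 0.341). Within prefixes, the Itga5 and Itgb1 value was 0.629 (exact permutation p = 0.0486, adjusted p = 0.438). Itgav had r = 0.324 with Itgb5 and -0.39 with Itgb3 (exact permutation p = 0.388 and 0.298). These p-values do not show that partners vary independently.

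The share of each gene in the pooled normalized counts of its subunit class showed how the make-up of the pool differed between clones. These shares were not corrected for transcript length, and are set side by side only within a gene. Among the 7 α subunit genes, Itga5 made up 34.4% to 55.4% of the normalized counts, Itgav 20.5% to 51.4% and Itga11 3.04% to 29.7%. Itgav itself did not pass in the comparison of prefixes, at 9856 ± 2095 normalized counts in prefix B and 9121 ± 1729 in prefix C (SD, n = 4 each), a log2 difference of 0.11 ± 0.18 (SE, adjusted p = 0.757 by limma), and Itga5 and Itga11, which enter the same sum, had lower means in prefix B. The Itgav share was 38.2% to 51.4% in prefix B and 23.5% to 35.0% in prefix C, without overlap, and 20.5% in A1. Its normalized counts did overlap, at 7630 to 12087 in prefix B and 7094 to 10754 in prefix C. No other share of an integrin gene was without overlap, and how often such shares separate over other genes was not taken. The part of Itga5 and Itga11 in this separation was not tested. Among the β subunit genes, Itgb1 made up 60.4% to 75.9%, Itgb5 23.4% to 37.6% and Itgb3 from 0.653% in B3 to 2.0% in A1. C1, C2 and C4 held the 3 lowest Itgb5 shares, at 23.4%, 27.3% and 25.1%.

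The libraries of prefixes B and C were compared as a check of the only split that the column names give, which is not a condition of the study. None of the 10 integrin genes passed limma's test at an adjusted p under 0.05, and over all 14705 genes 0.197% did. At an unadjusted p under 0.05 there were 4 of the 10, against 20.1% of all genes, and limma with voom on the recovered reads also called none of the 10. The lowest adjusted p was that of Itga5. Its normalized counts were 8186, 9361, 8383 and 8871 in B1 to B4 and 19216, 12993, 10839 and 11839 in C1 to C4. No B value reached a C value, and the difference of B minus C was -0.62 ± 0.17 on the log2 scale (SE, adjusted p = 0.150 by limma). Itga8 was at 710, 332, 301 and 630 in prefix B and at 736, 762, 1252 and 964 in prefix C, again without overlap, with a log2 difference of -0.98 ± 0.31 (SE, adjusted p = 0.171 by limma). These 2 of 10 genes had all 4 C libraries above all 4 B libraries, which held for 4.55% of all genes tested. The reverse order was seen in no integrin gene, but its share over all genes was not taken, so this absence has no background. Itga11 had the largest fitted difference, -1.77 ± 0.60 (SE, adjusted p = 0.185 by limma), but B1 at 2976 and B4 at 2960 lay above C1 at 2450. Itga1 differed by -0.82 ± 0.38 (SE, adjusted p = 0.264) and Itga3 by 0.75 ± 0.47 (SE, adjusted p = 0.390). For Itgb5 the difference was 0.38 ± 0.14 (SE, adjusted p = 0.208), with B above C on average. The fitted differences of the 10 genes had a median of -0.29, against 0.02 over all genes tested.

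The fibroblast score, the mean z-score of 14 fibroblast markers over the libraries, was highest in A1 at 1.01 and lowest in B3 at -0.89. Its markers did not all run the same way. All prefix B libraries scored below all prefix C libraries, but Dcn and Lum had higher means in prefix B. These were 1366 and 28.1 normalized counts in prefix B, and 373 and 4.12 in prefix C. In the comparison of prefixes, 3 of the 14 markers had a fitted difference above 0, with B higher, and none of the 14 passed. Itga8 rose with the fibroblast score, by 0.91 ± 0.26 log2 per unit (SE, adjusted p = 0.0479 by limma over 14691 genes), the only integrin gene to pass, where 5.95% of all genes tested passed upwards and 7.79% downwards. Without A1, the Itga8 slope was 1.15 ± 0.33 and no longer passed (adjusted p = 0.0787 by limma), and with A1 left out and the prefix as a covariate it was 0.75 ± 0.59 (adjusted p = 0.741). In both of these fits the score was made again without A1, so its unit is not that of the main fit. The slopes of the other genes of the group that moved together were 1.62 ± 0.50 for Itga11 (adjusted p = 0.0604), 0.88 ± 0.30 for Itga1 (adjusted p = 0.0737) and 0.73 ± 0.28 for Itgb3 (adjusted p = 0.0988), all by limma and none past the threshold. Itga5 had a slope of 0.52 ± 0.18 (adjusted p = 0.0841) and Itga3 of -0.82 ± 0.37 (adjusted p = 0.151). Itgb1 was flat in the fit, at 0.02 ± 0.14 (adjusted p = 0.917), and Itgb5 was at -0.10 ± 0.16 (adjusted p = 0.667). The slopes of the 10 genes had a median of 0.27, against -0.02 over all genes tested.

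**Figure D4:**
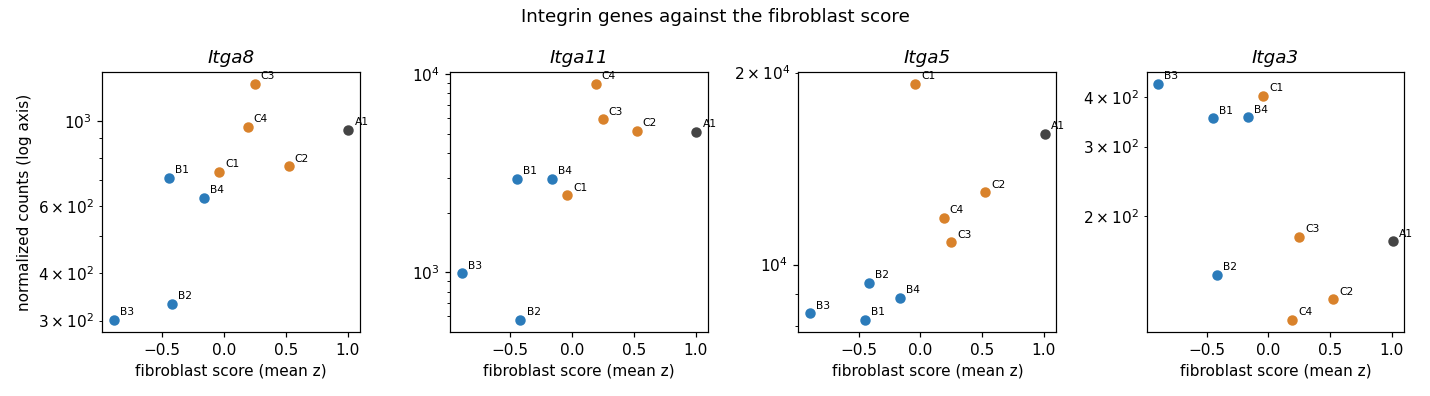
Normalized counts of Itga8, Itga11, Itga5 and Itga3 (vertical axis, log scale) against the fibroblast score (horizontal axis, mean z-score of 14 markers) in the 9 libraries, coloured grey, blue and orange for prefixes A, B and C. B2 and B3 are the lowest points for Itga8 and Itga11, and all 4 prefix B points lie to the left of all 4 prefix C points and of A1, so that prefix and score run together.

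The macrophage score, made in the same way from 16 markers, had r = -0.81 with the fibroblast score over the 9 libraries, so the fits on the 2 scores are not separate evidence. Itga5 fell with it, with a slope of -0.42 ± 0.10 log2 per unit (SE, adjusted p = 0.0276 by limma over 14689 genes), the only integrin gene to pass, where 6.62% of all genes tested passed downwards and 9.2% upwards. On the score made again without A1, the Itga5 slope was -0.37 ± 0.11 (adjusted p = 0.0609 by limma), and with the prefix as a covariate as well -0.19 ± 0.14 (adjusted p = 0.530), neither past the threshold. The 2 libraries with the highest macrophage score, B3 at 1.11 and B1 at 0.91, held the 2 lowest Itga5 values, 8383 and 8186 normalized counts. Itga1 had a slope of -0.45 ± 0.24 (adjusted p = 0.210) and Itga8 of -0.42 ± 0.23 (adjusted p = 0.233).

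**Figure D5:**
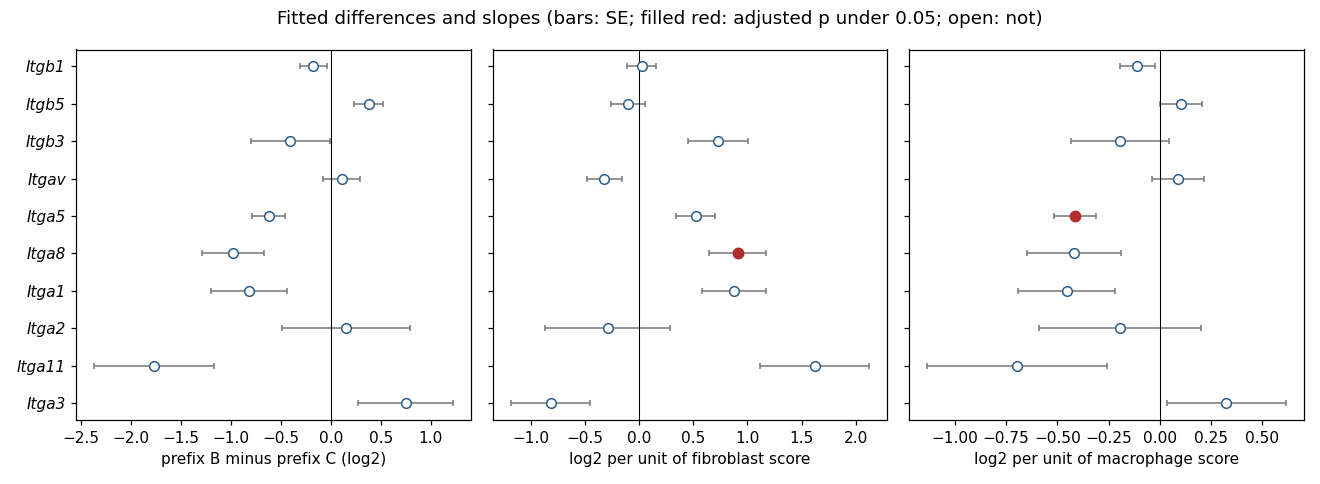
Fitted values of each integrin gene (rows) on a log2 scale, with bars for the SE: prefix B minus prefix C on the left, the slope on the fibroblast score in the middle and the slope on the macrophage score on the right. Filled red points passed an adjusted p under 0.05, which are Itga8 at 0.91 in the middle and Itga5 at -0.42 on the right, and no point passed on the left.

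The level of Mettl3 itself was the last axis followed. None of the 10 integrin genes passed limma's test of the slope on log2 Mettl3, while 2.63% of all 14704 genes tested passed. At an unadjusted p under 0.05 there were 0 of the 10, against 15.0% of all genes. Itgav had the lowest p, with a slope of -0.29 ± 0.13 log2 per doubling of Mettl3 (SE, adjusted p = 0.337 by limma), and its lowest value, 6188 normalized counts, was in A1, the library with most Mettl3. Itga8 and Itga11 had slopes of 0.08 ± 0.32 and 0.11 ± 0.60 (adjusted p = 0.925 and 0.948 by limma). A1 alone spans most of the Mettl3 range. Without it, the 8 remaining libraries gave slopes of -4.05 ± 0.75 for Itga8 and -7.05 ± 1.70 for Itga11 over a range of 468 to 621 normalized counts (adjusted p = 0.272 and 0.349 by limma), and no gene of the table passed, although 1634 had an unadjusted p under 0.05. In these 8 libraries Mettl3 was at 515 to 621 in prefix B and at 468 to 502 in prefix C. Prefix and Mettl3 therefore run together here, and these slopes also hold the difference between the prefixes. With the prefix as a covariate the slopes were -3.85 ± 1.38 for Itga8 and -6.16 ± 3.08 for Itga11, and again no gene passed.

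The ligands of these receptors were followed as a list of 22 genes, all listed in the table and 21 above the floor in every library. Fn1, encoding fibronectin, was at 276558 ± 70160 normalized counts (SD, n = 9) and Thbs1, encoding thrombospondin 1, at 194437 ± 90498, whereas Edil3, which encodes an RGD protein, was at 188 ± 148. Vtn, encoding vitronectin, was above the floor in 1 of 9 libraries, at 16.8 normalized counts in the highest. With the fibroblast score, leaving out Col1a1, Col1a2 and Col3a1, which are part of the score, and Vtn, which was too low to be tested, 9 of 18 ligand genes rose and 1 fell, beside the 5.95% and 7.79% of all genes. Lamb1, encoding the laminin β1 chain, rose by 0.92 ± 0.12 log2 per unit (SE, adjusted p = 0.00754 by limma) and Thbs1 by 1.14 ± 0.18 (adjusted p = 0.0088), and Tgfb1, the cytokine whose latent form αv integrins bind, was the gene that fell, at -0.60 ± 0.10 (adjusted p = 0.0088). Without A1, 7 ligand genes rose and Tgfb1 fell, beside 2.53% and 2.05% of all genes. With the macrophage score, 6 of 21 ligand genes fell and 1, Tgfb1, rose, beside 6.62% and 9.2% of all genes. Without A1, 3 fell, Lama1, Lamb1 and Col1a1, and Tgfb1 rose, beside 4.45% and 7.94% of all genes. With Mettl3, Npnt, which encodes the α8 ligand nephronectin and was named after its value was seen, had a slope of -1.67 ± 0.25 log2 per doubling (SE, adjusted p = 0.00868 by limma), and no other ligand gene passed. Npnt was at 184 normalized counts in A1 and at 841 to 3423 in the other 8 libraries, and no gene passed without A1.

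The adaptors and kinases that link integrins to actin, 22 genes of which 21 were listed, were above the floor in every library. Flna, encoding filamin A, was at 56646 ± 14390 normalized counts (SD, n = 9) and Tln1, encoding talin 1, at 26946 ± 1613, with an SD of log2 values of 0.09. Itgb1bp1, encoding a protein that binds the tail of β1 integrin, was at 772 ± 88.1 and Sharpin at 1036 ± 138. With the fibroblast score, 7 of 21 rose and 5 fell, beside 5.95% and 7.79% of all genes. Tgfb1i1, encoding the focal adhesion protein Hic-5, rose by 0.83 ± 0.11 log2 per unit (SE, adjusted p = 0.00754 by limma) and Flna by 0.63 ± 0.11 (adjusted p = 0.0102). The 5 that fell were Pxn, encoding paxillin, at -0.43 ± 0.06 (adjusted p = 0.00754), Sharpin, whose product holds β1 integrin inactive, at -0.32 ± 0.06 (adjusted p = 0.0112), and, named after their values were seen, Parvb, Nrp1 and Fermt3, the last encoding the kindlin of blood cells. Fermt2, the kindlin of most adherent cells, was among those that rose, at 0.83 ± 0.16 (adjusted p = 0.0153), so the kindlin genes moved in opposite directions. Without A1, 3 of the 21 rose, Tgfb1i1, Flna and Tln2, and 3 fell, Pxn, Nrp1 and Fermt3, and the slope of Fermt2 did not pass, beside 2.53% and 2.05% of all genes. With the macrophage score, 9 of 21 fell and 4, Fermt3, Nrp1, Sharpin and Pxn, rose, beside 6.62% and 9.2% of all genes, and the same 13 genes passed without A1, beside 4.45% and 7.94%.

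Of 16 other integrin genes, 14 were listed and 12 were above the floor in every library. The leukocyte integrin genes Itgam and Itgb2, which encode the subunits of the complement receptor CR3 of macrophages, were at 20886 ± 2929 and 14195 ± 1901 normalized counts (SD, n = 9). Itgb8 was above the floor in 8 libraries, with 35.0 as its highest value, and Itgae was above the floor in none. Of the other integrin genes, 13 were tested on each score. With the fibroblast score, Itga4 and Itgal fell, with slopes of -0.77 ± 0.11 and -1.85 ± 0.45 log2 per unit (SE, adjusted p = 0.0083 and 0.0295 by limma). None rose, where 7.79% of all genes fell and 5.95% rose. With the macrophage score, Itga4 and Itgb2 rose, by 0.48 ± 0.10 and 0.22 ± 0.05 (SE, adjusted p = 0.0168 and 0.0208 by limma). None fell, where 9.2% of all genes rose and 6.62% fell. Without A1, Itga4 fell with the fibroblast score and Itgal did not pass, beside 2.05% of all genes that fell. Itga4, Itgb2 and Itgam then rose with the macrophage score, beside 7.94% of all genes that rose. With the prefix as a covariate and A1 left out, no gene of the ligand, adaptor and other integrin lists passed limma's test on either score. The score lists share no gene with these integrins, and the part of the number of macrophages in these slopes was not tested.

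The genes whose pattern over the 9 libraries was most like that of each integrin gene were listed by Pearson's r, 3 for each. Ccdc80, which encodes a secreted matrix protein, was closest to both Itga8, with r = 0.968, and Itga11, with r = 0.978. For Itga8 it was followed by Gm10516 and 2610008E11Rik, and for Itga11 by Efs and Polk. 2610008E11Rik was also closest to Itga1, with r = 0.946, followed by Zfp422 and Gng11. For Itgb3 the 3 genes were Arvcf, with r = 0.974, Calhm5 and Gstt1. Src, the kinase that acts at focal adhesions, had r = 0.974 with Itga5, between Tnni3k at 0.982 and Bag2 at 0.967. The gene closest to Itgb5 was Cx3cr1, encoding the fractalkine receptor of macrophages and microglia, with r = 0.946, followed by Slc35a4 and Fmnl3. Itgav had Dock5, with r = 0.977, Erf and Chd1, Itgb1 had Kif1b, with r = 0.937, Bola3 and Gatad1, Itga3 had Enc1, with r = 0.960, Gm12840 and Clic5, and Itga2 had 1110046J04Rik, with r = 0.913, Gm19196 and Gm11808. Over all 14705 genes the median r of the third most similar gene was 0.945, so correlations of this size over 9 libraries are usual, and 4 of the 10 integrin genes, Itga1, Itga2, Itgb1 and Itgb5, fell short of that median.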

How the data were processed

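RNA from 9 MPC clones was sequenced from stranded mRNA libraries. The authors deposited log2 values for 18049 genes, that is, log2 of read counts times 1 factor per library plus 4. The submitters' processing notes name FastQC 0.11.9, STAR 2.7.10, RSEM 1.3.3 and GRCm38, without their roles. The log2 was reversed and 4 subtracted. Whole reads came out for 100% of values under 100 reads (tolerance 0.1 read). Because 1 value per gene and library was deposited, with no lengths, no order of levels between genes was tested. The naming of genes by their mean uses normalized counts that are not corrected for length. All 9 libraries are a single group. Columns carry no sample title, and 6 columns of mouse embryonic fibroblasts from other studies were not used.

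Fits used limma 3.58.1 (lmFit, eBayes with trend, R 4.3.3) on log2(normalized counts + 1), for genes whose mean reached 10 normalized counts, with Benjamini-Hochberg adjustment over all genes tested and a threshold of 0.05. Scores were mean z-scores of marker lists, whose genes were left out of that fit. Where A1 was left out, the scores were made again from the remaining libraries, so slopes per unit are not on the scale of the main fits. Partner pairs were tested by exact permutation in Python 3.11.15 with scipy 1.17.1. The scripts were tested on simulated data. The integrin genes, lists and tests were chosen with earlier results of these data known. Named genes are the 10 integrin genes, the 3 most correlated genes of each, and from each list the 2 highest and 2 lowest means and called genes, at most 6, with further genes named where a count of 5 or fewer, or a gene singled out, called for it (Fermt2, Fermt3, Nrp1, Parvb, Tln2, Npnt, Lama1, Col1a1), which was done after their values were seen. The other marker lists were endothelial (summed normalized counts 156 to 429), epithelial and acinar (174 to 1708), mesothelial (0 to 1200) and smooth muscle and pericyte (6809 to 24182). Alternatives were another pseudocount, no filter, upper-quartile scaling, voom, scores without z-scores and libraries left out. The prefix as a covariate, always with A1 left out, and the count without overlap were added after the data were seen. The sources do not say which clones share an animal, so p-values measure only the spread between these libraries. Xist in prefix B and Ddx3y in the other libraries are not expected in clones of a single animal. Intervals and floors cover counting error only.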

Additional observations from a re-analysis of the deposited data

Results flagged for a closer look

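Itga2 in library B2 stood apart from the other 8 libraries. Its gap to the next library, at 42.1 normalized counts, was 0.556 of the whole range of the 9 values. The value of 81.2 normalized counts in B2 rests on 57 reads, and the other libraries hold 5 to 31. Such a test flags about 1 in 20 groups of normally distributed values by chance, and it was applied to each of the 10 genes. It was run on normalized counts and not on the log2 values used in the fits.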

How the results depend on the processing

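No paired analysis was possible because every clone belongs to the same group. The levels and spreads of the 10 genes moved by less than the spread between libraries under both alternatives, upper-quartile scaling and leaving out A1. This outcome was nearly fixed in advance, so it is no test of robustness. The scaling moves values by only -0.07 to 0.05 log2, and A1 is 1 of 9 libraries. In the comparison of prefixes, 29 genes passed, and leaving out a library in turn gave 9 (without C4) to 259 (without C3), and 0 of the 10 integrin genes passed in any of these fits, with the lowest adjusted p of a fit from 0.0691 to 0.353. With the fibroblast score 2019 genes passed, 672 without A1, 630 without z-scores and 2 with the prefix as a covariate, where the Itga5 slope turned to -0.25. Itga8 did not pass under 5 alternatives, at adjusted p from 0.0524 with no filter to 0.741 with the prefix, by limma. With the macrophage score 2325 genes passed, and with the prefix as a covariate 0 did (limma, 2405 at an unadjusted p under 0.05), where the Itga8 slope turned to 0.12. With Mettl3 386 genes passed, 60 with voom, 0 without A1 and 0 with the prefix as a covariate (all by limma, 1634 and 358 at an unadjusted p under 0.05). The Itga8 slope on Mettl3 turned to -4.05 without A1 and -3.85 with the prefix, and that of Itga11 to -7.05 and -6.16. Of the partner pairs, none passed under any alternative, and 5 changed sign: without the 2 libraries farthest from the median, r with Itgb1 was -0.63 for Itga1, -0.52 for Itga8, -0.35 for Itga11 and -0.18 for Itgav, and without A1 it was -0.0681 for Itga3. The cause of these changes was not tested. Per-kilobase shares were not run for lack of transcript lengths. Depth limits Itga2, at 5 to 57 reads.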
